A study of Mus musculus with 36 samples.

Results

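Primary B cell precursors from mouse bone marrow that carried the R35K mutant of C/EBPα were examined over the first hour of induced B cell to macrophage transdifferentiation (BMT). The members are 4 RNA-seq libraries of 36 in all, 2 of uninduced R35K cells (0 h) and 2 of R35K cells 1 hr post induction (hpi), chosen by construct and time from the sample labels and not by any measured value. The other libraries hold the later R35K times (3, 6, 18 and 120 hpi) and the same 6 times for cells with wild-type C/EBPα or with the R35A mutant, again with 2 biological replicates each. These cells, from C57BL/6J mice, were infected with a retrovirus that encodes C/EBPα fused to the hormone-binding part of the estrogen receptor (ER). It also encodes human CD4 as a surface tag. Infected cells were grown on inactivated mouse embryonic fibroblasts, and hCD4+ cells were enriched. Induced cells received 17β-estradiol (E2) in medium with IL-7 and myeloid cytokines, and later renewals of the medium were without IL-7. A step to remove feeders by adherence preceded RNA extraction. Fibroblast transcripts were still abundant in the 0 h and 1 hpi libraries, as given below. In R35K the arginine at position 35 is a lysine, in R35A it is an alanine. All cells of the 3 constructs, the uninduced ones included, carry an ER fusion, and none received E2 without C/EBPα, so E2, the change of medium, the passing of 1 h and active C/EBPα cannot be told apart in a comparison of 1 hpi with 0 h.

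C/EBPα is a leucine zipper transcription factor that specifies granulocytes and macrophages, and when forced into B cell precursors it silences the B cell programme and activates the macrophage programme. It acts together with PU.1, encoded by Spi1, a factor that B cells and macrophages share. Arginine 35 lies in the disordered activation domain of C/EBPα and can be methylated by the arginine methyltransferase Carm1. Lysine keeps the positive charge of arginine, alanine does not.

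The 4 libraries held 14668754 to 15934472 counts on genes, within the range of 13044456 to 23131776 over the 36 libraries. The 2 replicates of each group differed by more than counting noise, so neither pair was 1 library counted again. Whether the replicates came from separate cultures was not tested. The common biological coefficient of variation over the 12 R35K libraries was 3.49%. Cebpa itself was counted at 40.0 and 37.9 CPM (counts scaled to a common library total, with TMM) at 0 h and at 90.0 and 87.0 CPM at 1 hpi. The 1 hpi libraries were higher without overlap, with a log2 fold change of 1.18 ± 0.06 (SE, n = 2 per group, edgeR adjusted p = 1.06e-18). Reads of the construct and of the endogenous gene were not separated here, and gene counts do not show residue 35, so the label of the mutant was not checked. The labelled B cell identity was borne by all 8 B cell markers, whose summed level was 6790 to 6911 CPM at 0 h, against 72.5 to 73.1 CPM for 8 macrophage markers and 8539 to 8896 CPM for 14 fibroblast markers of the feeders. Sums over markers are given throughout as CPM on the unscaled library totals, without TMM, whereas levels of single genes are TMM-scaled.

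Of 16434 genes tested between 1 hpi and 0 h in R35K cells, 5414 (32.9%) were called, that is, they changed at least 1.5-fold with p, adjusted after Benjamini and Hochberg, not above 0.05 in edgeR's quasi-likelihood test. Higher levels at 1 hpi were called for 2548 genes (15.5%) and lower levels for 2866 (17.4%). Which direction held more genes depended on the scaling and the fit, with 2934 higher and 2444 lower with DESeq2's size factors, 2658 and 2172 in the DESeq2 Wald test, and 2836 and 2668 in a fit over all 36 libraries. The rises reached further than the falls. At least 4-fold rises were called for 771 genes and falls of that size for 341, and past 16-fold there were 286 rises and 14 falls. The values of the 2 groups did not overlap for 2547 of the 2548 genes called higher and 2863 of the 2866 called lower, but that held for 80.3% of all genes tested as well. Since RNA was measured in bulk, fewer cells of a type and less RNA per cell cannot be told apart.

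**Figure D1:**
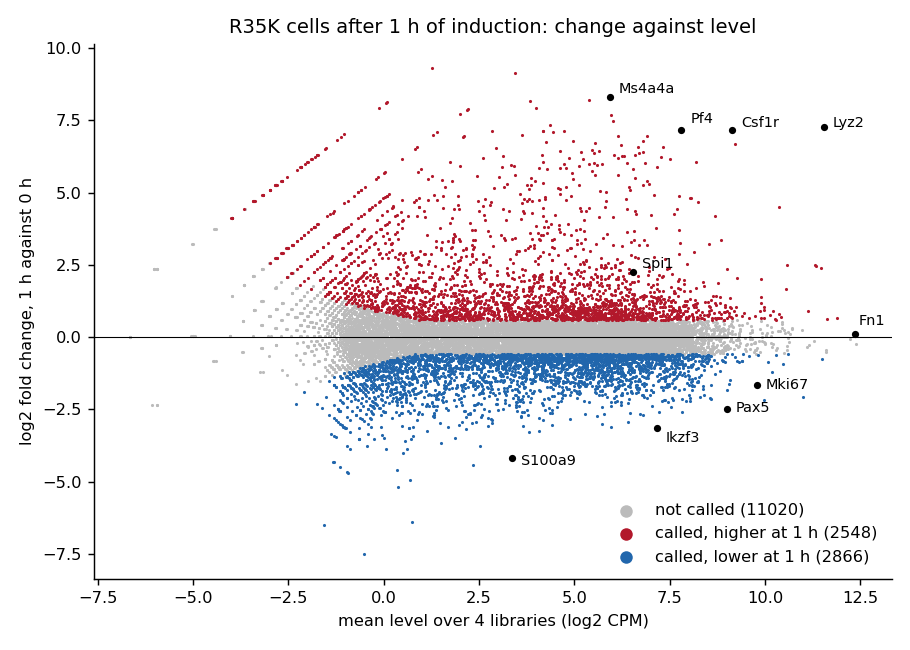
Each point is 1 of 16434 genes in R35K cells, with the mean level over the 4 libraries (log2 CPM) on the horizontal axis and the log2 fold change of 1 hpi against 0 h on the vertical axis. Red points (2548) were called higher, blue points (2866) lower, grey points were not called, the red cloud reaches further from 0 than the blue one, and points of genes with 3 or fewer reads in a group are fitted values and no bounds.

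The genes with the largest rises among those above 10 CPM at 1 hpi included many genes known from mononuclear phagocytes. Lyz2, which encodes the lysozyme of macrophages, went from 39.3 and 36.1 CPM to 5916 and 5861 CPM, a rise of 156-fold (log2 fold change 7.28 ± 0.04, edgeR adjusted p = 4.97e-47). Csf1r, the receptor for macrophage colony-stimulating factor, went from 7.91 and 7.76 CPM to 1132 and 1097 CPM (log2 fold change 7.15 ± 0.05, edgeR adjusted p = 9.16e-44). Pf4, a chemokine of megakaryocytes and macrophages also known as CXCL4, went from 3.09 ± 0.838 CPM to 444 CPM (mean ± SD, n = 2, with 445 and 443 CPM in the 1 hpi libraries; log2 fold change 7.17 ± 0.08, edgeR adjusted p = 2.24e-37). In each of these the replicates of a group lay far closer to each other than the groups did.

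Other rises started from almost no reads. Ms4a4a, a gene of the MS4A family of membrane proteins, stood at 0.417 and 0.323 CPM and then at 118 and 123 CPM (log2 fold change 8.31 ± 0.11, edgeR adjusted p = 5.08e-35). Fcrls, an Fc receptor-like gene best known from microglia, stood at 0.357 and 0.194 CPM and then at 82.8 and 84.1 CPM (log2 fold change 8.19 ± 0.14, edgeR adjusted p = 2.12e-32). Acod1, which encodes the enzyme that makes itaconate in activated macrophages, stood at 0.119 and 0.129 CPM and then at 30.0 and 33.5 CPM. These genes were close to silent in both 0 h libraries and plainly expressed in both 1 hpi libraries. Sirpb1c had 1 read over both 0 h libraries and 690 over both 1 hpi libraries, a ratio of 702 with a 95% counting interval from 126 to 27768, and belongs to a family of near-identical receptors whose reads can be split between members. Nxpe5 had 3 reads at 0 h and 906 at 1 hpi, a ratio of 307 (95% counting interval 105 to 1493). These intervals cover counting error only. The remaining genes of the 12 largest rises were Ms4a7, Ms4a6d, Aoah, which encodes a lipopolysaccharide-degrading enzyme of phagocytes, and Clec4a3, a C-type lectin receptor, with log2 fold changes from 7.14 to 7.70.

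**Figure D2:**
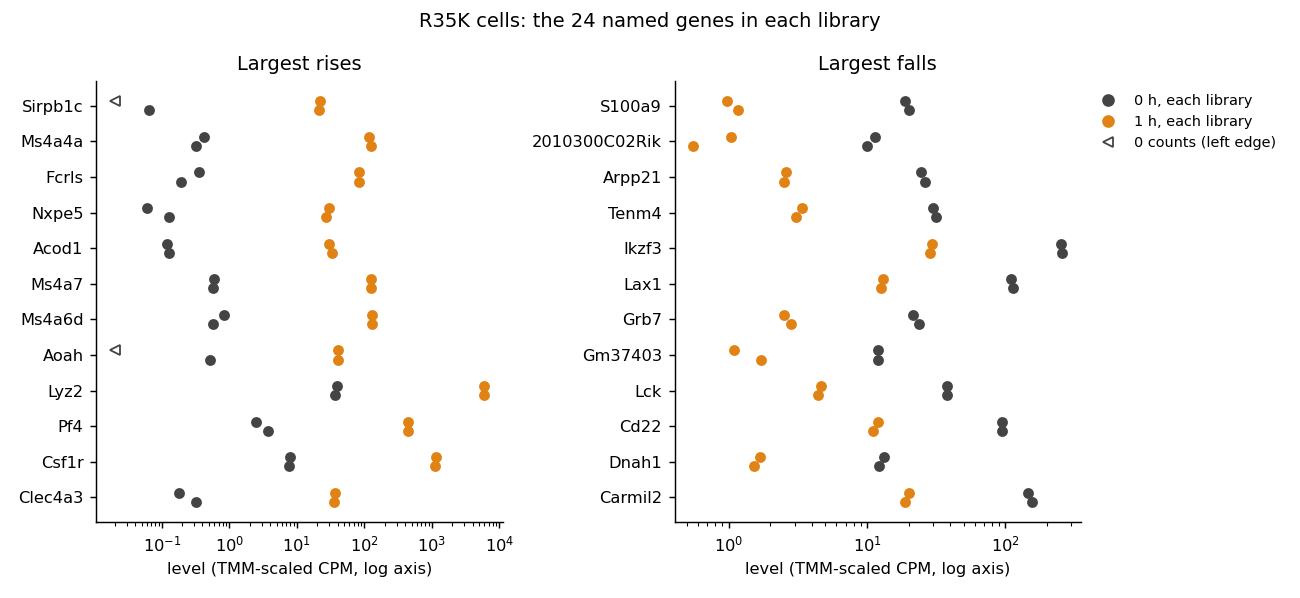
The level of the 12 genes with the largest rises (left) and the 12 with the largest falls (right) in R35K cells is plotted on a log axis in TMM-scaled CPM, 1 point per library, dark grey for 0 h and orange for 1 hpi. Open triangles at the left edge stand for libraries with 0 counts, and for all 24 genes the points of the 2 times do not overlap.

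The 250 bases in front of the RefSeq transcription start are shown for the 3 genes with the largest rises that have an entry in the promoter table, and for Pf4, which was added after its motifs were seen. Capitals mark matches on either strand to the C/EBP motif TTGCNNAA and to the PU box GAGGAA that PU.1 recognises, and the 2 motifs share no base with each other here. All are written 5′ to 3′ on the strand of the gene, in build GRCm38.p6, the same assembly as mm10. Sirpb1c (chr3:15848488-15848737, minus strand) and Ms4a4a (chr19:11375238-11375487, plus strand) hold neither motif, Fcrls (chr3:87263525-87263774, minus strand) holds the PU box, and Pf4 (chr5:90772185-90772434, plus strand) holds both.
Sirpb1c: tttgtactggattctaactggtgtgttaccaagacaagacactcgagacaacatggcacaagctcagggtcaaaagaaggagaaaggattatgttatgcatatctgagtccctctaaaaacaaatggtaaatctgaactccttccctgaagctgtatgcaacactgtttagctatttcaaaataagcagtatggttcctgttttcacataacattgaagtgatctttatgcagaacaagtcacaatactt
Ms4a4a: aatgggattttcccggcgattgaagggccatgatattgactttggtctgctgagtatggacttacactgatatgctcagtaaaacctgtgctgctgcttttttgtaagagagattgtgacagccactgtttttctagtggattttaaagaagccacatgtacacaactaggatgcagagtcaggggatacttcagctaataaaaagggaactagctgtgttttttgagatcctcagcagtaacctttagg
Fcrls: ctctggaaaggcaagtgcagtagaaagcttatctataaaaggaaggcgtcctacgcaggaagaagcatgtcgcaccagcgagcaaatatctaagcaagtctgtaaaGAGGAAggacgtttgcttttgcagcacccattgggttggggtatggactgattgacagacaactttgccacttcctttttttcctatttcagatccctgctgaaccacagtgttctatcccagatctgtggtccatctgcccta
Pf4: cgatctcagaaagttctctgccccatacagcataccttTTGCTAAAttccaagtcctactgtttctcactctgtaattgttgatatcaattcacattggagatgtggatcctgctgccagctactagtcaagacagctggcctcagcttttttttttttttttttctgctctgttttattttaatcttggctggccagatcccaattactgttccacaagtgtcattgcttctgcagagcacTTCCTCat
Over the 27025 genes of the promoter table, 9.55% hold the C/EBP motif and 23.1% the PU box in these 250 bases. With synonyms, 11770 of the 16434 tested genes (71.6%) have an entry in that table, too few for a comparison of motif shares between genes called and not called, and none is given.

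Since several Ms4a genes were among the largest rises, all tested genes of the family on chromosome 19 were read out, a choice made after the values were seen. The tested genes span 537 kb of that chromosome in mm10 from Ms4a8a (start 11067471) to Ms4a6d (end 11604849). GENCODE places 19 Ms4a genes on the chromosome, some outside that span, of which 11 had enough reads to be tested. Of these, 10 rose and 1 fell. Many of the 10 had almost no reads at 0 h, and such genes pass the read filter only through induced groups. The split therefore says little about the family as a whole. Ms4a3, which was not tested, had 12 and 7 reads at 0 h and 0 in both 1 hpi libraries. The tested gene that fell is Ms4a1, which encodes the B cell antigen CD20, from 35.1 and 29.1 CPM to 3.95 and 4.73 CPM (log2 fold change -2.88). Ms4a14, its nearest tested neighbour on one side, with the untested Ms4a5 between them, went from 0.298 and 0.453 CPM to 52.2 and 53.8 CPM (log2 fold change 7.13). Ms4a6c (6.19) and Ms4a6b (3.37) rose as well, and the smallest rise was that of Ms4a4b (2.64). Members of this family are similar in sequence, and short reads may be shared between them.

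The largest falls were smaller and came from another set of genes. Ikzf3, which encodes the lymphoid zinc finger factor Aiolos, went from 253 and 258 CPM to 29.6 and 28.7 CPM (log2 fold change -3.13 ± 0.05, edgeR adjusted p = 5.19e-32). Cd22, an inhibitory co-receptor of B cells, went from 94.1 and 94.3 CPM to 12.1 and 11.1 CPM (log2 fold change -3.02 ± 0.07, edgeR adjusted p = 3.03e-28). Lax1, an adaptor that dampens antigen receptor signals, went from 109 and 113 CPM to a mean of 12.8 CPM. All 3 fell without overlap between the libraries. If such a fall ran evenly over the labelled hour, the Ikzf3 mRNA would have lost a factor of 2 every 19.2 min and that of Cd22 every 19.9 min. The sources used here do not say whether the adherence step of the harvest falls within that hour.

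Arpp21, Tenm4, Grb7, Dnah1, Carmil2, the lymphoid kinase gene Lck and the genes 2010300C02Rik and Gm37403 were also among the 12 largest falls, with log2 fold changes between -3.76 and -2.95. The largest among genes above 10 CPM at 0 h was S100a9, a calcium-binding protein of neutrophils, from 18.8 and 20.2 CPM to 0.971 and 1.17 CPM (log2 fold change -4.17 ± 0.18, edgeR adjusted p = 2.32e-20).

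The macrophage genes were read out as lists. Of the 20 genes of the study's macrophage signature, 19 rose and none fell, with a median log2 fold change of 5.26 against -0.04 over all genes tested. This list and the B cell signature may have been chosen on these samples, so neither is independent evidence of its direction. Itgam, the integrin chain of Mac-1, went from 1.43 and 2.33 CPM to 92.7 and 89.7 CPM (log2 fold change 5.61 ± 0.09, edgeR adjusted p = 1.57e-32). Trem2, a lipid receptor of macrophages, went from 1.07 and 1.16 CPM to 139 and 143 CPM, and Cd14, the co-receptor for lipopolysaccharide, by 5.59 on the log2 scale to 141 and 137 CPM. The member not called was Batf2, with at most 0.259 CPM in any library.

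Beyond the signature, 42 of 45 tested myeloid receptors and integrins rose and none fell (median log2 fold change 5.25). They covered Fc receptors (Fcgr3, 6.59, and the signalling chain Fcer1g, 6.28), C-type lectins (Clec4n, 6.58), the F4/80 antigen Adgre1 (6.95), the adaptor Tyrobp (6.24) and the shared cytokine receptor chain Csf2rb (3.26). Ly96 (0.49), Fcgr2b (0.33) and Trem1 (-0.09) were not called. Fcgr2b is the Fc receptor that B cells also express, and it stood at 79.6 and 81.6 CPM before induction. The summed level of the 8 macrophage markers went from 72.5 and 73.1 CPM to between 8211 and 8315 CPM.

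Transcription factors of the myeloid lineage moved less and not in 1 direction. Of 24 tested, 14 rose and 3 fell (median log2 fold change 1.19). Spi1 went from 31.1 and 32.6 CPM to 156 and 150 CPM (log2 fold change 2.26 ± 0.06, edgeR adjusted p = 2.79e-27). Cebpb and Cebpd, which encode relatives of C/EBPα, rose 3.76-fold and 3.07-fold, and Tfec, of the Mitf family, rose 30.8-fold. The 3 that fell were Irf8 (157 and 163 CPM to 95.3 and 97.7 CPM), Hhex (log2 fold change -1.04) and the repressor gene Gfi1 (-1.80). Runx1 (0.13) and Klf4 (0.51) stayed under the fold threshold. Among the factors called, Batf3 had 3 reads at 0 h and 17 at 1 hpi, and its call was lost without replicate 2 at 0 h (adjusted p = 0.0939) or replicate 1 at 1 hpi (0.0956).

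The B cell programme went down over a narrower range. All 20 genes of the study's B cell signature fell, with a median log2 fold change of -1.89. Pax5, the factor that commits cells to the B lineage, went from 864 and 860 CPM to 155 and 153 CPM (log2 fold change -2.48 ± 0.04, edgeR adjusted p = 4.13e-32). Ebf1, a factor that acts upstream of Pax5, went from 416 and 403 CPM to 124 and 133 CPM (log2 fold change -1.67 ± 0.04). These transcripts were reduced several-fold but were still abundant at 1 hpi. The smallest fall was that of Cd2 (log2 fold change -0.66), which was under the fold threshold without replicate 1 at 1 hpi (-0.55) and with DESeq2's size factors (-0.58).

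Of 20 tested B lineage transcription factors 14 fell and none rose, led by Ikzf3, Irf4 (-2.67), Pax5 and Bach2 (-2.40). Tcf4 (-0.47), Foxp1 (-0.56), Sox4 (-0.41), Pou2f2 (-0.37), Ikzf2 (-0.09) and Id3 (0.21) were not called. Of 18 genes of the pre-B cell receptor and its signalling, 15 fell, among them the surrogate light chain genes Igll1 (-1.65) and Vpreb1 (-1.83) and the kinase gene Blk (-2.69), whereas the kinase genes Lyn (0.24) and Syk (-0.48) were not called. In the V(D)J recombination machinery 9 of 12 fell and 1 rose. Rag1, a subunit of the recombinase, went from 83.4 and 83.0 CPM to 12.1 CPM in replicate 1 at 1 hpi (log2 fold change -2.73), and Dntt, the enzyme that adds bases at the joints, from 149 and 152 CPM to 24.9 and 23.9 CPM, while Dclre1c, the nuclease Artemis, rose 1.69-fold.

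Inflammatory cytokines and chemokines rose with the receptors, with 24 of 27 tested higher, 1 lower and a median log2 fold change of 4.05. Cxcl2, a chemoattractant of neutrophils, went from 1.49 and 1.81 CPM to 102 and 106 CPM, Ccl6 from 5.95 and 5.11 CPM to 232 and 233 CPM, and Tnf from 4.17 and 3.43 CPM to 39.5 and 40.6 CPM. Il1b had 1 read at 0 h and 255 at 1 hpi (ratio 259, 95% counting interval 46.2 to 10290). Il18 was the member that fell (log2 fold change -0.80). Ptgs2, already at 547 and 505 CPM before induction, rose 2.59-fold. Of 18 tested NF-kB subunits and inhibitors 12 rose and none fell, led by the inhibitor genes Tnip3 (5.25) and Nfkbia (2.43), while the subunits Rela (0.41), Nfkb1 (0.16) and Rel (-0.35) were not called.

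Interferon-stimulated genes were higher in 13 of 17 cases, with Mx1 (5.42), Rsad2 (4.88) and Ifitm3 (1.77, from 151 and 152 CPM to 515 and 521 CPM) among them. Immediate early genes, which answer to stimuli without new protein synthesis, were higher in 19 of 30 cases and lower in 1 (Dusp2), with a median log2 fold change of 0.76. Ier3 rose 6.53-fold, Fos from 58.2 and 56.0 CPM to 227 and 231 CPM and Egr1 2.32-fold, whereas Jun (0.42) was not called. Among 19 feedback genes of cytokine receptors 6 rose, 4 fell and 9 were not called, beside 15.5% higher and 17.4% lower among all tested genes. Socs3, the inhibitor induced by STAT3, went from 16.6 and 17.1 CPM to 170 and 176 CPM. The IL-7 and STAT5 target Socs2 went from 84.1 and 76.1 CPM to 38.9 and 40.3 CPM.

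Granule genes parted into 2 sets. Of 16 tested, 4 rose (Lyz2, Lyz1, Mcpt8 and Lcn2) and 11 fell. The neutrophil granule gene Ngp went from 9.16 and 10.3 CPM to 0.518 and 0.369 CPM, and S100a8, the partner of S100a9, stood at 11.2 and 12.0 CPM at 0 h and had a log2 fold change of -2.56. Mpo, myeloperoxidase of the primary granules, had 107 reads at 0 h and 1 at 1 hpi, a ratio of 105 (95% counting interval 18.5 to 4192), and Ctsg had 22 and 0 reads, at least 7.21-fold lower. Mpo and Ctsg thus had at most 1 read left over both 1 hpi libraries, whereas S100a8 was still detected. Of 7 neutrophil markers tested 6 fell, and the exception was Mmp8, a collagenase of neutrophil granules, which rose from 2.44 and 2.78 CPM to 220 and 220 CPM. The summed level of the 10 neutrophil markers was 54.8 to 58.8 CPM at 0 h, when Mmp8 made up little of it. At 1 hpi the sum was 234 CPM and was set by Mmp8. The part of any neutrophils among the uninduced cells was not tested.

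Genes of cell division fell together. In DNA replication 27 of 29 tested fell and none rose (median log2 fold change -1.56), with the helicase gene Mcm5 from 406 and 420 CPM to 104 and 101 CPM and the licensing factor gene Cdc6 from 90.9 and 88.5 CPM to 16.4 and 17.1 CPM. All 20 mitosis genes fell (median -1.26), with the proliferation marker Mki67 from 1330 and 1345 CPM to 423 and 414 CPM. Of 18 G1 cyclins, kinases and inhibitors 10 fell, among them Ccne2 (-1.87) and Ccnd3 (-1.40), whereas the inhibitor gene Cdkn1a stood at 1446 and 1446 CPM at 0 h and at 1639 and 1637 CPM at 1 hpi, under the fold threshold. Of 25 genes of ribosome biogenesis and Myc 14 fell (Dkc1, -1.47, and Ncl, nucleolin, -0.92), while Myc, which drives that programme, rose from 35.6 and 37.0 CPM to 72.6 and 68.5 CPM. Among all tested genes 17.4% were called lower.

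Feeder genes were also higher at 1 hpi. Of 14 fibroblast markers 9 rose and none fell (median log2 fold change 0.74), and their summed level went from 8539 and 8896 CPM to between 10552 and 10894 CPM. Dcn, a proteoglycan of fibroblasts, rose 6.81-fold and Col3a1 by 1.68 on the log2 scale, while the most abundant, Fn1, stood at 4946 and 5172 CPM and then at 5526 and 5316 CPM and was not called. The part of feeder RNA in genes that fibroblasts also express, such as Ptgs2, Lif, Csf1 and Il6, was not tested. Among other cell types, 2 of 3 tested megakaryocyte and erythroid genes rose (Pf4 and Ppbp, both chemokines, with Itga2b at 0.05), 1 of 3 T and NK cell genes rose (Cd28, 3.64) and 2 fell, and Cd3e, Cd3d and Cd3g had at most 2 reads in any library. The 8 mitochondrial mRNAs summed to 21819 to 23892 CPM at 0 h and 19398 to 19850 CPM at 1 hpi, and 0 of the 7 tested were called at either sign, with the lowest log2 fold change at mt-Nd1 (-0.45).

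Carm1 stood at 69.9 and 69.4 CPM and then at 54.2 and 54.6 CPM (log2 fold change -0.36 ± 0.05, edgeR adjusted p = 5.77e-07), under the fold threshold. Of 8 tested arginine methyltransferases 2 fell, Prmt5 (-0.78) and Prmt7 (-0.65), beside 17.4% of all tested genes called lower, and with DESeq2's size factors Prmt7 was under the threshold (-0.58), as it was without replicate 2 at 0 h (-0.53) or replicate 1 at 1 hpi (-0.58). Esr1, the gene of the estrogen receptor, was not called (0.23). Of 11 estrogen receptor targets known from other tissues 4 rose, led by Greb1 (2.13) and the cathepsin gene Ctsd (1.65). Pgr, the progesterone receptor, fell (-1.78). Among all tested genes 15.5% were called higher and 17.4% lower. In wild-type and in R35A cells 4 of the 11 were called higher too, and whether E2 acted on these genes was not tested. Heat shock and stress genes rose in 2 of 16 cases (Gadd45b, 0.91, and Hmox1, 0.81), a share near the 15.5% of all tested genes called higher. In the Bcl2 family 5 of 16 rose and none fell, beside 15.5% higher and 17.4% lower among all tested genes. Mcl1 went from 400 and 399 CPM to 662 and 663 CPM. The closely related Bcl2a1 genes, whose reads can be shared, rose from near 0 (Bcl2a1d had 0 and then 29 reads, at least 9.84-fold higher).

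**Figure D3:**
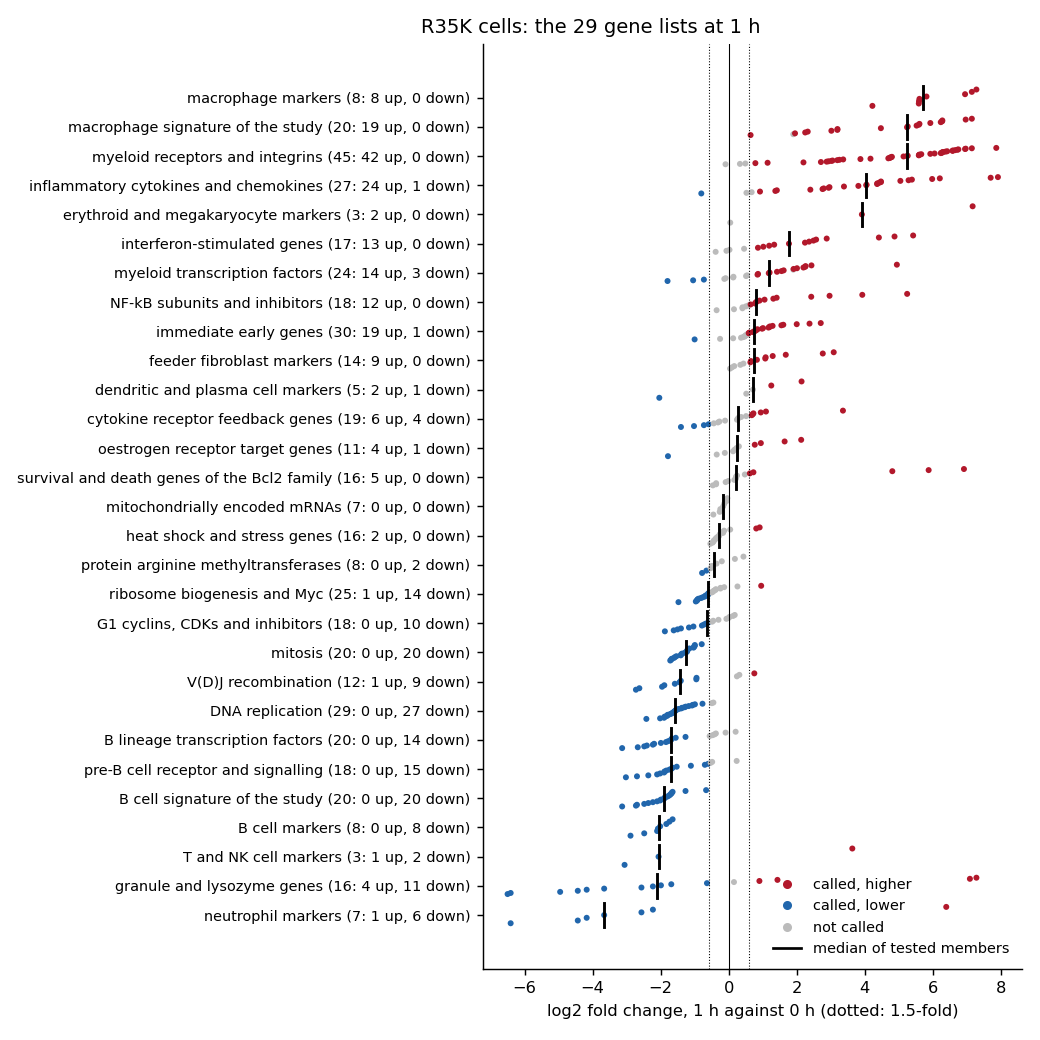
Each row is 1 of 29 gene lists in R35K cells with the number of members tested and called in brackets, and each point is a tested member placed at its log2 fold change of 1 hpi against 0 h, red if called higher, blue if called lower and grey otherwise. Black bars are medians and dotted lines mark 1.5-fold, points of genes with 3 or fewer reads in a group are fitted values and no bounds, and the lists run from neutrophil markers at the bottom to macrophage markers at the top.

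Of the tested genes 98.8% were found in GENCODE vM21. The median gene length was 20.5 kb for genes called higher and 20.5 kb for genes called lower, against 19.8 kb for all tested. Genes of at least 100 kb made up 14.8% of the rises, 11.7% of the falls and 12.3% of all tested genes. Protein-coding genes made up 88.4%, 81.6% and 85.2% in the same order, and noncoding RNA genes 8.97%, 12.3% and 10.4%.

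Most of the early change of R35K cells lay between 0 h and 1 hpi. In the same fit, 57 genes (0.347%) were called between 1 and 3 hpi, 195 (1.19%) between 3 and 6 hpi, 887 (5.4%) between 6 and 18 hpi and 8755 (53.3%) between 18 and 120 hpi, a choice of contrasts made after seeing the data. Neighbouring intervals share the libraries between them. The 1 hpi level of Lyz2 was 5889 ± 38.8 CPM (mean ± SD, n = 2), followed by 4378 ± 14.2 CPM at 3 hpi, 3254 ± 117 CPM (18 hpi) and 16996 ± 296 CPM (120 hpi). Fcrls went from 83.5 ± 0.929 CPM at 1 hpi to 4.52 ± 0.329 CPM at 18 hpi and stood at 125 ± 0.388 CPM at 120 hpi. Pax5 was at 154 ± 1.47 CPM at 1 hpi, 155 ± 3.58 CPM at 3 hpi, 62.1 ± 0.972 CPM at 18 hpi and 0.823 ± 0.488 CPM at 120 hpi. The feeder gene Dcn was at 168 ± 0.601 CPM at 1 hpi and at 2.91 ± 0.286 CPM at 120 hpi.

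As a description over all genes, the root mean square difference in log2 CPM between the mean of R35K cells at 1 hpi and another group was 1.02 for R35K cells at 0 h. It was 0.25 for 3 hpi, 0.30 for 6 hpi, 0.45 for 18 hpi and 1.73 for 120 hpi. The 2 single libraries of the R35K 1 hpi group differed from each other by 0.34. That value is not directly comparable with the group distances, since means of 2 libraries carry less noise than single libraries. The same distance was 0.40 to R35A cells at 1 hpi and 0.58 to wild-type cells at 1 hpi. Wild-type and R35A cells at 0 h lay 0.24 and 0.24 from R35K cells at 0 h.

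**Figure D4:**
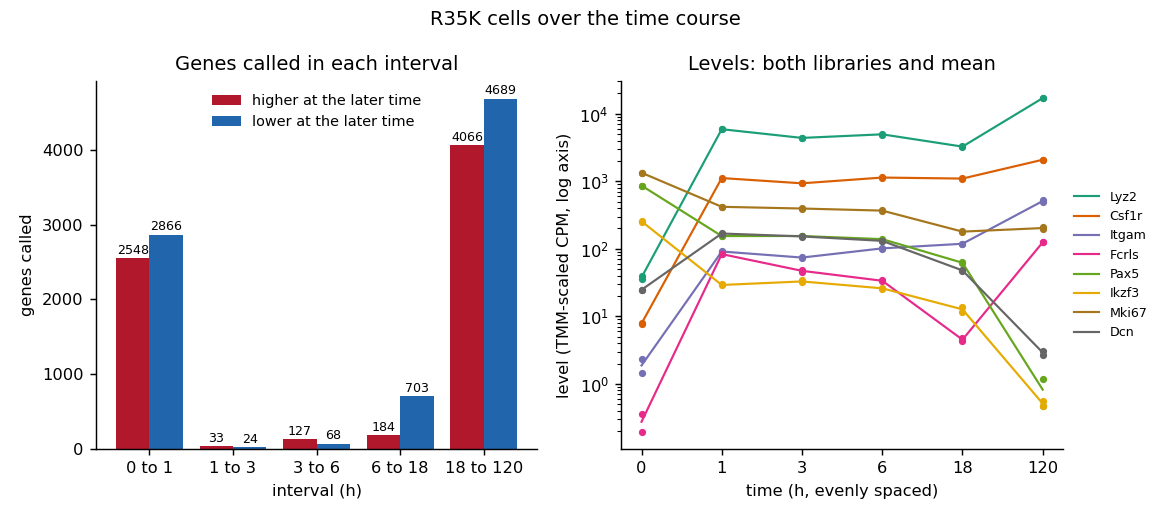
The left panel counts the genes called higher (red) and lower (blue) at the later time of each interval in R35K cells, from 2548 and 2866 for 0 to 1 h down to 33 and 24 for 1 to 3 h and up to 4066 and 4689 for 18 to 120 h. The right panel gives the TMM-scaled CPM of 8 genes on a log axis, with points for both libraries of a time and lines through the means, with times spaced evenly and not to scale.

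The first hour of R35K cells was then set beside that of wild-type cells, which asks whether the exchange of arginine for lysine alters the early response. Over all 36 libraries in 1 fit, 17277 genes were tested. By the same rule R35K cells had 5504 calls (31.9%), wild type had 3409 (19.7%, of them 10% of all genes higher and 9.72% lower) and R35A had 6405 (37.1%). Of the genes tested in both fits and called in R35K cells, 1268 of the 2548 higher ones (49.8%) were also higher in wild-type cells, where they made up 74.9% of the rises, and 1350 of the 2866 lower ones (47.1%) were also lower, where they made up 83.9% of the falls. Called in opposite directions were 15 and 14 genes. The constructs share no library, but the R35K libraries come from a table of their own and those of wild type and R35A from another, so the R35K construct and its table cannot be told apart, and only changes from 0 h were compared.

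The change itself differed from wild type for 2059 genes (11.9%) in the interaction test, being more positive in R35K cells for 1181 (6.84%) and more negative for 878 (5.08%). With DESeq2's size factors these numbers were 1102 and 960. Without the low-count filter they were 978 and 1030, so the larger side depended on the processing. Csf1r stood at 7.54 and 7.48 CPM in wild-type cells at 0 h and 110 and 112 CPM at 1 hpi, against 7.71 and 7.57 CPM and 1147 and 1107 CPM in R35K cells on the scale of this fit (difference in log2 change 3.32 ± 0.09, edgeR adjusted p = 4.53e-35). Lyz2 reached 604 ± 6.49 CPM (mean ± SD, n = 2) in wild-type cells and 5955 ± 54.5 CPM in R35K cells (difference 3.27 ± 0.05). Pax5 went to 253 and 249.9 CPM in wild-type cells and to 157 and 155 CPM in R35K cells (difference -0.66 ± 0.06, edgeR adjusted p = 1.44e-14). Cebpa rose 1.34 on the log2 scale in wild-type and 1.23 in R35K cells, a difference of -0.10 ± 0.09 (edgeR adjusted p = 0.47). Esr1, however, went from 59.8 and 61.6 CPM to 143 and 147 CPM in wild-type cells. In R35K cells it went from 59.5 and 63.6 CPM to 74.4 and 75.6 CPM. Whether reads of Esr1 came from the construct was not tested.

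Over lists, the larger responses of R35K cells lay on both sides of the exchange of programmes. The change was more positive than in wild type for 17 of 20 genes of the macrophage signature (median difference 1.70, against 0.01 over all genes), 35 of 46 myeloid receptors, 18 of 27 cytokines and chemokines, 11 of 18 NF-kB genes and 11 of 17 interferon-stimulated genes, with none more negative in these 5 lists. It was more negative for 12 of 20 genes of the B cell signature, with 1 more positive, and for 18 of 29 replication and 16 of 20 mitosis genes with none more positive. Ribosome biogenesis genes differed in 1 of 25 cases and fibroblast markers in 1 of 14, beside 11.9% of all tested genes. The fibroblast marker was Dcn (edgeR adjusted p = 5.17e-22, higher in R35K cells). Wild-type cells had a fibroblast sum of 8313 to 8464 CPM at 0 h and 13094 to 13166 CPM at 1 hpi. The sum at 1 hpi was 10552 to 10894 CPM in R35K cells.

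Among genes called in the interaction test with a mean of at least 10 CPM in 1 of the groups compared, those with the largest excess over wild type were Fcrls (difference 6.13 ± 0.74), Ms4a7 (5.63 ± 0.44), Aif1, a calcium-binding protein of microglia and macrophages (5.25 ± 1.07), Ms4a4a (4.95 ± 0.68) and Ms4a14 (4.49 ± 0.88). Fcrls was at 0.206 and 0.427 CPM and then at most 1.58 CPM in wild-type cells, against 0.348 and 0.189 CPM and then 83.9 and 84.9 CPM in R35K cells. Ms4a4a and Ms4a14 had 0.0686 CPM in replicate 1 of uninduced wild-type cells. Without replicate 2 of that group their differences were 2.73 (adjusted p = 0.368) and 2.76 (adjusted p = 0.363), and neither was called. The opposite extreme was led by Dnajc6, a cofactor of clathrin uncoating, which fell from 10.1 and 12.6 CPM to 5.77 and 5.40 CPM in R35K cells and rose from 9.74 and 10.5 CPM to 24.7 and 23.8 CPM in wild-type cells (difference -2.28 ± 0.17, edgeR adjusted p = 1.34e-16). P2rx3, an ATP-gated channel (-2.06), Myh11, smooth muscle myosin (-2.04), the ribosomal protein paralog Rpl3l (-1.87) and Gm14137 (-1.85) followed. Of these, P2rx3, Myh11 and Rpl3l rose in wild-type cells, and Gm14137 was not called there.

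Against R35A, the other exchange of the same residue, 1007 genes (5.83%) differed in their change, 717 (4.15%) being more positive in R35K cells and 290 (1.68%) more negative. That split was 71.2% to the positive side with TMM and 58.5% with DESeq2's size factors (555 and 394 genes). Of the genes called higher in R35K cells 2046 (80.3%) were also higher in R35A cells, where they made up 64.1% of the rises. Of those called lower 2353 (82.1%) were also lower, 78.3% of the falls of R35A. Opposite calls were made for 1 gene and 0 genes.

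Most genes of the macrophage signature and of the myeloid receptor list did not pass the test between the mutants. Of the 8 macrophage markers, however, 7 had a more positive change in R35K cells and 0 a more negative one (median difference 0.90). Their summed level at 1 hpi was 3863 to 3882 CPM in R35A cells and 8211 to 8315 CPM in R35K cells. The change was more positive in R35K cells for 8 of 20 macrophage signature genes (median difference 0.51, against 0.04 over all genes), with 1 more negative and 11 not called, and for 14 of 46 myeloid receptors, with 32 not called. Lyz2 reached 2791 ± 4.31 CPM (mean ± SD, n = 2) in R35A cells against 5955 ± 54.5 CPM in R35K cells (difference 0.95 ± 0.05, edgeR adjusted p = 6e-21), and Spi1 94.3 and 95.6 CPM against 158 and 151 CPM (difference 0.72 ± 0.08). The change was also more positive for 16 of 20 genes of the B cell signature (median difference 0.80), 12 of 18 pre-B cell receptor genes and 15 of 20 mitosis genes, with none more negative. Pax5 ended at 78.2 and 79.1 CPM in R35A cells and at 157 and 155 CPM in R35K cells (difference 0.91 ± 0.06, edgeR adjusted p = 4.46e-18). Cebpa rose 0.55 on the log2 scale in R35A cells, which was not called, and 1.23 in R35K cells (difference 0.68 ± 0.10, edgeR adjusted p = 1.12e-07). Esr1 went from 55.0 and 53.6 CPM to 46.0 and 46.0 CPM in R35A cells.

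Among genes above the same level, Aif1 (difference 2.18 ± 0.74), Ms4a7 (2.10 ± 0.36), Vwf, von Willebrand factor (2.03 ± 0.44), Aldh3a1, an aldehyde dehydrogenase (1.91 ± 0.48), and the mannose receptor gene Mrc1 (1.85 ± 0.18) exceeded R35A most. Mrc1 reached 49.3 and 48.4 CPM in R35A cells and 180 and 189 CPM in R35K cells (edgeR adjusted p = 8.88e-12). The call of Aif1 (adjusted p = 0.0284) was lost without replicate 1 of R35A at 0 h (0.435) and without replicate 1 (0.0653) or 2 (0.108) of R35K at 0 h, and that of Aldh3a1 without replicate 1 of R35K at 0 h (0.0779). Below R35A stood Mmp8 (-2.07 ± 0.20), the neuropeptide receptor gene Adcyap1r1 (-1.43 ± 0.27), the plasma haemoglobin-binding protein gene Hp (-1.38 ± 0.35), and the integrin gene Itga2 (-1.28 ± 0.15). Mmp8 reached 309 and 309 CPM in R35A cells from 1.21 and 0.532 CPM, against 223 and 222 CPM in R35K cells from 2.38 and 2.71 CPM. The call of Hp was lost without replicate 2 of R35K at 0 h (adjusted p = 0.0656) or replicate 2 of R35A at 0 h (0.0719). Sums of fibroblast markers were 8807 to 9059 CPM at 0 h and 14974 to 15041 CPM at 1 hpi in R35A cells. In R35K cells the sum at 1 hpi was 10552 to 10894 CPM. In the interaction test against R35A 0 of these 14 markers were called, beside 5.83% of all tested genes. Their median difference was -0.34, with 10 below 0 and 4 above, so equal change of the feeder genes is not shown.

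**Figure D5:**
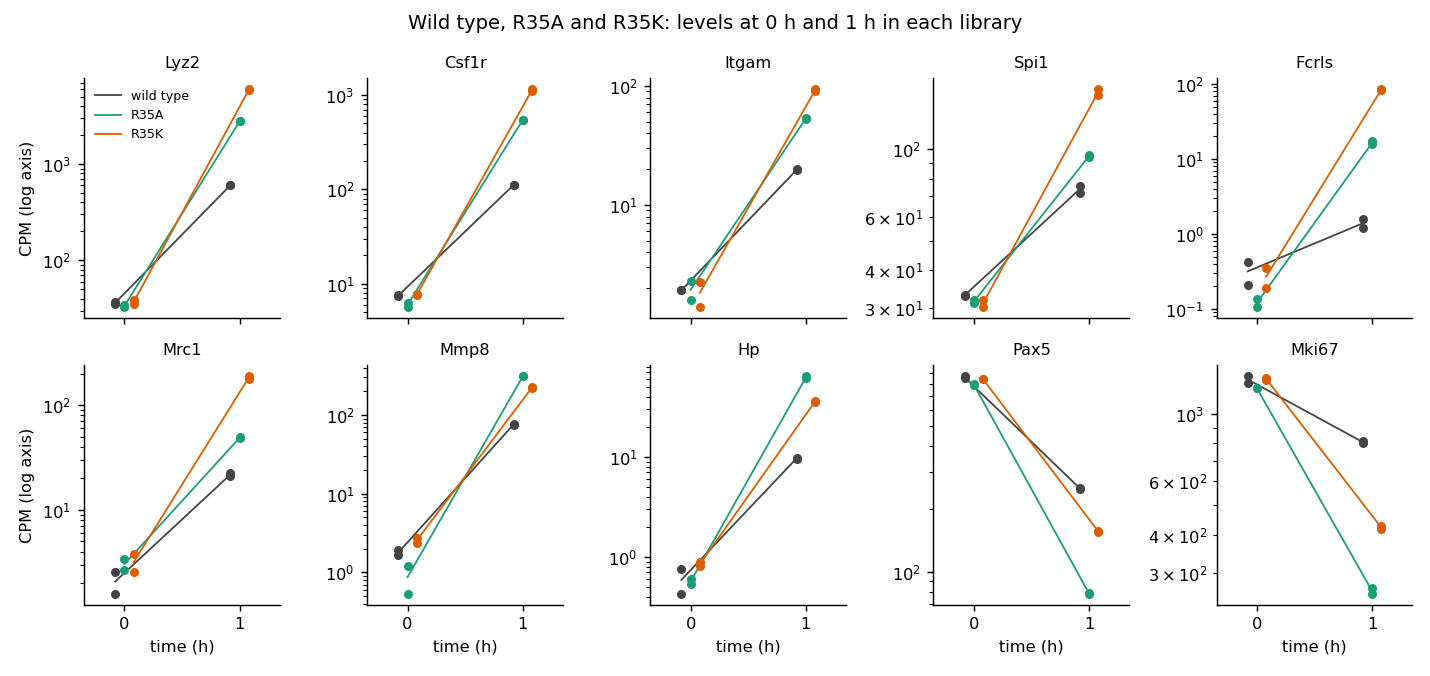
Levels of 10 genes (CPM, log axis) at 0 h and 1 hpi are shown for wild type (dark grey), R35A (green) and R35K (orange), with a point per library, shifted sideways by construct, and lines that join the means. R35K lies highest at 1 hpi for Lyz2, Csf1r, Itgam, Spi1, Fcrls and Mrc1, below R35A for Mmp8 and Hp, and between wild type and R35A for Pax5 and Mki67.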

How the data were processed

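The authors sequenced stranded poly(A) libraries (single-end reads), aligned them with STAR 2.5.0a to mm10 and deposited raw read counts per gene in 2 tables, one for wild type and R35A and one for R35K. The annotation release and the counted strand are not given in the sources used here. The deposited counts of 36 libraries (40354 genes) were used as they stand, with each column assigned to its sample by name. Counts were tested with edgeR 4.0.16 in R 4.3.3 (TMM scaling, filterByExpr, quasi-likelihood test, Benjamini-Hochberg adjustment). The 12 R35K libraries entered 1 fit with 6 groups, and all 36 libraries another for interactions between constructs. A gene was called at a change of at least 1.5-fold and an adjusted p of at most 0.05. With 2 replicates per group, p-values measure only the spread between these samples. Named genes were the 12 largest called rises and falls by the fixed rule on level, the 5 largest differences each way between constructs, list members, and fixed genes (Cebpa, Spi1, Carm1, Esr1, Itgam). Some genes that these rules name are not reported here. Members and lists were chosen with earlier results of these data known. Gene positions came from GENCODE vM21 and promoters from RefSeq. The procedure was tested on simulated data in which few genes changed, evenly in both directions. That simulation did not reach the share of genes called here, so it does not test the scaling at such a share. Alternatives were DESeq2 1.42.0 and its size factors, other filters and thresholds, a replicate block, other sample sets, and each library left out in turn.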

Additional observations from a re-analysis of the deposited data

Results flagged for a closer look

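In the interaction test over all 36 libraries, the change over the first hour differed between R35K and wild-type cells for 2059 genes and between R35K and R35A cells for 1007 genes. Groups of 2 samples were not examined for single outlying samples.

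The genes named next had a mean of at least 10 CPM in 1 of the groups compared. Against wild type the log2 change was higher in R35K cells by 6.13 for Fcrls, 5.63 for Ms4a7, 5.25 for Aif1, 4.95 for Ms4a4a and 4.49 for Ms4a14. Without replicate 2 of uninduced wild-type cells the difference was 2.73 for Ms4a4a and 2.76 for Ms4a14. It differed by -2.28 for Dnajc6, -2.06 for P2rx3, -2.04 for Myh11, -1.87 for Rpl3l and -1.85 for Gm14137.

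Against R35A the log2 change was higher in R35K cells by 2.18 for Aif1, 2.10 for Ms4a7, 2.03 for Vwf, 1.91 for Aldh3a1 and 1.85 for Mrc1. It differed by -2.07 for Mmp8, -1.43 for Adcyap1r1, -1.38 for Hp and -1.28 for Itga2. The calls of Aif1, Aldh3a1 and Hp against R35A were lost when single libraries were left out, as given above. That of Aif1 was also lost in the DESeq2 Wald test and without the low-count filter. Construct and table of deposit cannot be told apart in any of these differences.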

How the results depend on the processing

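No called change of a named gene or list member was reversed in sign under any alternative. Which direction held more called genes did depend on the alternative, in R35K cells and in the comparison with wild type. At a 2-fold threshold 3137 genes were called in R35K cells (1605 higher, 1532 lower), 924 differed from wild type (651 and 273) and 253 from R35A (179 and 74). With unadjusted p-values 474 genes were more negative than in R35A, and with the DESeq2 Wald test 467 were more positive. Leaving out each library in turn gave 5131 to 5303 genes called in R35K cells (2436 to 2507 higher, 2695 to 2817 lower), 1910 to 2016 against wild type (1082 to 1171 and 810 to 860) and 898 to 961 against R35A (648 to 701 and 250 to 277). Same-numbered replicates were not paired: over 15 pairs of groups the correlation of deviations had a median of 0.074, with 6 pairs above 0.1, and the replicate block gave 5400 calls (2542 higher, 2858 lower). The cause of these shifts was not tested. Genes with few reads in the uninduced cells are limited by depth, and the intervals between neighbouring times were chosen after seeing the data.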
